A study of Homo sapiens with 36 samples.

Results

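The replication-dependent histone genes encode the bulk of the linker histone H1 and of the core histones H2A, H2B, H3 and H4. They were chosen by name and biotype: protein-coding genes whose GENCODE v44 symbol starts with H2AC, H2BC, H3C or H4C and a digit, or is H1-1 to H1-5. This rule gave 69 genes, of which 65 had their Ensembl ID among the 58302 gene IDs of the count files: 5 of family H1, 15 of H2A, 19 of H2B, 11 of H3 and 15 of H4. The IDs of H2AC18, H2AC19, H3C2 and H3C3 were not matched, and these genes were not analysed here.

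These genes are switched on as cells enter S phase, when newly copied DNA has to be packed into nucleosomes, and their mRNAs are destroyed when replication ends. Unlike nearly all other mRNAs, most of their transcripts end in a short stem-loop instead of a poly(A) tail. SLBP binds that stem-loop, NPAT drives transcription in S phase, and the genes lie in clusters, the main one on the short arm of chromosome 6. Tailed transcripts of some of these genes have been described in cells that leave the cycle.

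Expression was measured in JEKO, MINO and UPN-1 cells, all established lines of human mantle cell lymphoma, a B-cell cancer that overexpresses cyclin D1, kept in 1 kind of serum-supplemented medium. Cells were exposed for 24 h or 72 h to DMSO (the vehicle) or to GS716054, a compound that blocks KDM5 enzymes, which remove methyl groups from lysine 4 of H3. This gave 12 groups, with 3 biological replicates each and 36 libraries in all. The dose was not given in the sources used here. RNA was prepared with a kit for mRNA, per the labels. The B-cell markers CD79A, CD79B, MS4A1, PAX5 and CD22 and CCND1 and SOX11 were detected in all 36 libraries, at no less than 14.3 CPM. Among the T-cell, monocyte and fibroblast markers listed, CD2 and DCN had no read. CD3D, CD3E, CD14, LYZ, CSF1R, COL1A1 and COL1A2 had reads in some libraries, up to 6.22 CPM (LYZ). The highest median of these was 0.744 CPM (COL1A1). In each library 8784815 to 14970876 reads were assigned to genes, and 697 to 6719 of these to members. Levels are CPM, read counts scaled to library size with TMM factors, and a count of 0 allows up to 0.196 to 0.353 CPM, depending on the library (3 counts, counting error only). A treatment effect is a log2 fold change of GS716054 over DMSO, and it was called where its Benjamini-Hochberg adjusted p over all genes tested in the line was under 0.05 (edgeR quasi-likelihood test). In bulk RNA, a larger share of cells that hold an mRNA and more mRNA per cell cannot be told apart.

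The stem-loops past the stop codons of the members on which the results turn are shown with the conserved core in capitals. Each has the 5 bases on either side (5' to 3', DNA letters, GRCh38). All lie in the 3' untranslated region, past the stop codon. The annotated genes H2AC6, H2BC5, H3C6 and H3C10 run 14491, 12799, 1908 and 816 genomic bases past it, beyond the stem-loop. Reads were counted per gene, so transcripts that end at the stem-loop and longer ones cannot be told apart.
H1-2: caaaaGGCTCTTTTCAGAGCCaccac
H2AC6: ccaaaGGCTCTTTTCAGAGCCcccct
H2AC11: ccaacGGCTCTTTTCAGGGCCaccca
H2BC12: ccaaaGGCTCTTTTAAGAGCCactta
H2BC5: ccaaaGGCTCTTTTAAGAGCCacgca
H3C10: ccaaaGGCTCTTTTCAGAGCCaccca
H3C6: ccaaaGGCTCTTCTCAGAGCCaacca
H4C9: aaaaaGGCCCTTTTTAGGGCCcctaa
The H1-2 site is at chr6:26055739-26055764 on the minus strand, that of H2AC6 at chr6:26124664-26124689 on the plus strand, and that of H2BC12 at chr6:27146361-27146386 on the minus strand. The pattern searched on the gene's strand, within 100 bases past the stop codon, was that of these cores: GG, any 3 bases, TT, any base, T, any base, A, any 3 bases and CC. It was present in 67 of the 69 members and in 89 of 19937 protein-coding genes, 0.446%. H2BC12L and H2BC18 had no match in this window. The core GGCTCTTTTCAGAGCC was the most common, in 39 members, and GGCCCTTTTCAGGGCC was found in 10. H2BC12 and H2BC5 share the core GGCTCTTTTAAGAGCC, and H4C9 has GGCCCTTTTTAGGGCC. The polyadenylation signal AATAAA lay in the same window in 4 members, H1-2, H2BC5, H2BC18 and H4C11, against 8.29% of protein-coding genes.

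Promoters are shown for members from all 5 families that moved in at least 1 line: the 150 bases before the transcription start, 5' to 3' on the gene's strand, from RefSeq (GRCh38.p14). Capitals mark matches on either strand to the TATA box motif TATAAA, to the octamer ATTTGCAT, a binding motif of POU factors, and to the CCAAT box.
H1-2: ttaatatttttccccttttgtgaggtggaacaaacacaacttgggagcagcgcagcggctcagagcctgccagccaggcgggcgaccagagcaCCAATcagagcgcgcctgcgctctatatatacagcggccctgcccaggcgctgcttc
H2AC6: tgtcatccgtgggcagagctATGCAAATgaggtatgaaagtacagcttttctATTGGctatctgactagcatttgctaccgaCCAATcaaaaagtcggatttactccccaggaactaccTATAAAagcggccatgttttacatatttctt
H2BC12: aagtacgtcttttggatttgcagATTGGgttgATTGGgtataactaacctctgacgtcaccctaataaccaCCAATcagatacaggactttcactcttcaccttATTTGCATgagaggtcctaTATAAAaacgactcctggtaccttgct
H3C10: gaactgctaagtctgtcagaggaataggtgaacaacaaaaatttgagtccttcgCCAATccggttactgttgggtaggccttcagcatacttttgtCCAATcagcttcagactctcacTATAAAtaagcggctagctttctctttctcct
H4C9: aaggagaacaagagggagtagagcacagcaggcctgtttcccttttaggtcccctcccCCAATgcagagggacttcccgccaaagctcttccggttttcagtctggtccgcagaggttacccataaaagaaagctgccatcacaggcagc
These lie at chr6:26056471-26056620 (minus), chr6:26124022-26124171 (plus), chr6:27146859-27147008 (minus), chr6:27809901-27810050 (plus) and chr6:27139132-27139281 (plus). Over the 250 bases before the start, TATAAA was found in 42 of the 63 member promoters in the RefSeq table, 66.7%, against 11.1% of all 27305 promoters there. CCAAT was found in 84.1% against 33%, in every H1, H2A, H2B and H3 promoter but in 3 of 13 H4 promoters. The octamer was found in 41.3% against 1.66%, in 14 of 18 H2B and 11 of 16 H2A promoters and in none of H1 or H4. In the stretches printed, the octamer is present in H2AC6 and H2BC12 only.

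Reads were found in every library for 34 of the 65 members. No read was counted in any of the 36 libraries for H2AC1, H2AC7, H2AC17, H2AC25, H2BC26 and H3C4, and 5 further members had 1 to 15 reads in all. H2AC7 and H3C4 share most of their exons with a longer gene on the same strand in GENCODE v44, and H2AC17 shares 71% of its exon with H3C12. Filtering on low counts left 42 JEKO, 32 MINO and 34 UPN-1 members to test, and 28 were tested in every line. Every count of calls below is over tested members only. The 6 most abundant members took 22.8% to 85.7% of all member reads in a library.

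Per length, the highest mean levels over the 36 libraries were those of H2BC12, at 37.7 CPM per kb of exon, H4C9 at 33.8 and H1-2 at 29.0. H2BC8, named after its values were seen, was at 20.4, H2BC5 at 17.4, H2BC9 at 15.5, H2AC11 at 13.4 and H2AC6 at 11.7 CPM per kb. H3C8, at 6.24, and H3C10, at 4.28, were the H3 genes with the most reads. For H2BC12, only 42.8% of its 50-base windows occur in no other annotated transcript of a histone gene, so its count can depend on how reads that fit several genes were handled. The share was under 50% for 12 members, among them H2AC13, H2AC14, H3C13, H4C11 and H4C12, and over 90% for 48.

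Few or no reads were counted for most of the listed RNAs that carry no poly(A) tail. Of 10 such RNAs listed, 6 (RN7SK, RMRP, RPPH1, SCARNA2, SCARNA10 and RN7SL1) had no read in any library, and TERC, RNU4ATAC and SNORD3A did not exceed 1.72 CPM. RN7SL2 was the exception, with 33.5 to 267 CPM. The levels of the histone genes are therefore those of the transcripts retained by this preparation, and the number of all their transcripts and the tailed fraction cannot be told apart.

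**Figure D1:**
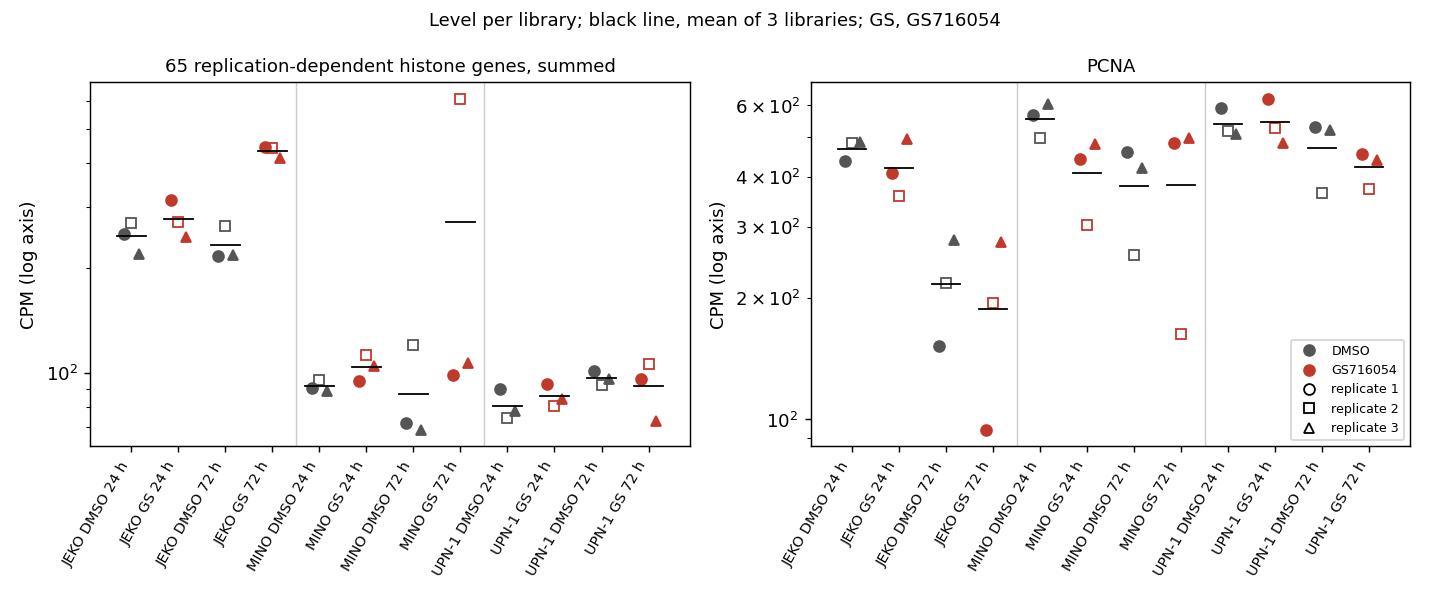
Summed level of the 65 members (left) and level of PCNA, a replication factor (right), in CPM on log axes, for each of the 36 libraries, by group; symbols give the replicate number and black lines the mean of 3 libraries. The 3 JEKO libraries with GS716054 at 72 h lie at 412 to 444 CPM, above all other JEKO libraries, and 1 MINO library with GS716054 at 72 h stands apart at 610 CPM with the lowest PCNA of its line.

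In DMSO, the members were highest in JEKO. Their summed level was 247 ± 25.2 CPM there at 24 h (mean ± SD, n = 3), 91.9 ± 3.42 CPM in MINO and 80.8 ± 8.07 CPM in UPN-1. Of the 28 members tested in every line, 13 had all 6 JEKO DMSO libraries above all 6 MINO DMSO libraries, and 14 had them above those of UPN-1. H2AC20 was the only one of the 28 with every JEKO library below every MINO library. H4C9 ranged from 19.4 to 26.6 CPM over the JEKO DMSO libraries (median 21.4), from 2.61 to 4.23 in MINO (median 3.07) and from 7.82 to 12.7 in UPN-1 (median 8.47). H2BC12 had the same order, with medians of 27.1, 3.70 and 14.1 CPM. Line differences in level were not tested.

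In JEKO at 72 h the summed level of the members was higher with GS716054. The genes called were H1-2, H2AC6, H2AC11, H2BC12 and H3C10. The summed level of the members was 217, 263 and 218 CPM in the DMSO libraries, in the order of replicates 1, 2 and 3, and 444, 441 and 412 CPM with GS716054. The groups did not overlap, and the ratio within a replicate number was 2.04, 1.68 and 1.89. A total of 5 of the 42 members tested were called, all of them higher, against 0.204% of all genes called higher in this comparison. At an unadjusted p under 0.05, 22 members were higher and 1 lower, against 5.13% and 3.49% of all genes in these directions. For 22 members every treated library was above every DMSO library, against 6.51% of all genes, and for none was the reverse true, against 4.81%. The median log2 fold change of the 42 was 0.80, against 0.00 for all genes tested.

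H3C10, which encodes canonical H3, had the lowest adjusted p of the members. Its level was 7.74, 8.06 and 5.18 CPM in DMSO and 24.9, 18.2 and 16.3 CPM with GS716054, a log2 fold change of 1.5 (SE 0.23, adjusted p = 0.0111). All 3 treated libraries were above the highest DMSO library. H1-2, the most abundant linker histone gene here, went from 22.4, 28.5 and 27.4 to 45.2, 67.4 and 55.4 CPM, a log2 fold change of 1.1 (SE 0.19, adjusted p = 0.0262). H1-4, a less abundant H1 gene, was at 1.3, 1.26 and 0.666 CPM and 0.372, 0.723 and 2.2 CPM and had 0.05 (SE 0.56, adjusted p = 0.997).

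Both leading H2A genes rose. H2AC6 was at 24.7, 27.6 and 16.4 CPM in DMSO and 49.7, 55.4 and 41.7 CPM with GS716054, 1.1 (SE 0.21, adjusted p = 0.0462) on the log2 scale. H2AC11 was at 9.62, 11.1 and 9.39 CPM and 19.3, 19.3 and 18.5 CPM, 0.92 (SE 0.16, adjusted p = 0.0225). The spread within each H2AC11 group was small beside the distance between the groups. Among the H2B genes, H2BC12 rose from 26, 28.1 and 25.7 to 48.2, 44 and 43.3 CPM, 0.77 (SE 0.15, adjusted p = 0.0458). H2BC5 was at 13.2, 22.8 and 13.8 CPM and 36.1, 54.9 and 28.9 CPM, and its log2 fold change of 1.27 (SE 0.26, adjusted p = 0.0569) missed the threshold.

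None of the 9 H4 genes tested was called. H4C9 was at 19.4, 22.9 and 21.2 CPM in DMSO and 35.6, 28.9 and 34.5 CPM with GS716054, a log2 fold change of 0.64 (SE 0.17, adjusted p = 0.151), without overlap of the groups. H4C8 had 0.89 (SE 0.29, adjusted p = 0.328). The summed level of each family was higher with GS716054 in every replicate number: H3 genes went from 15, 17.9 and 12.3 CPM to 40.8, 31.5 and 33.5 CPM, and H4 genes from 36, 34.1 and 32.4 to 67, 49.9 and 55.8 CPM. The family medians of the log2 fold change ranged from 0.57 (H1, 4 genes) to 0.89 (H4, 9 genes).

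In JEKO at 72 h, libraries with the same replicate number deviated together (correlations of 0.59, 0.55 and 0.29 over all genes), so the numbers were taken as pairs. With the replicate number as a block within each time, 10 members were called, all higher, against 1.89% of all genes called higher in that fit. The members added were H2BC5 (adjusted p = 0.000732), H2BC8 (0.00527), H2AC8 (0.0144), H3C6 (0.0183) and H4C8 (0.0257). All 5 of these had adjusted p of 0.0569 to 0.328 without the block, and H2BC8, H2AC8 and H3C6 were chosen after their values were seen. A total of 31 of the 42 members were higher in every replicate number, against 18.7% of all genes. Only H2AC14 was lower in every replicate number. The calls without the block depended on single libraries: with each of the 6 libraries left out in turn, 0 to 6 members were called, and H2BC12 lost its call each time (adjusted p of 0.0752 to 0.19). H3C10 lost it only without DMSO replicate 3 (0.0742). H1-2 lost it in 4 of the 6 cases, and H2AC6 and H2AC11 in 5 each.

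**Figure D2:**
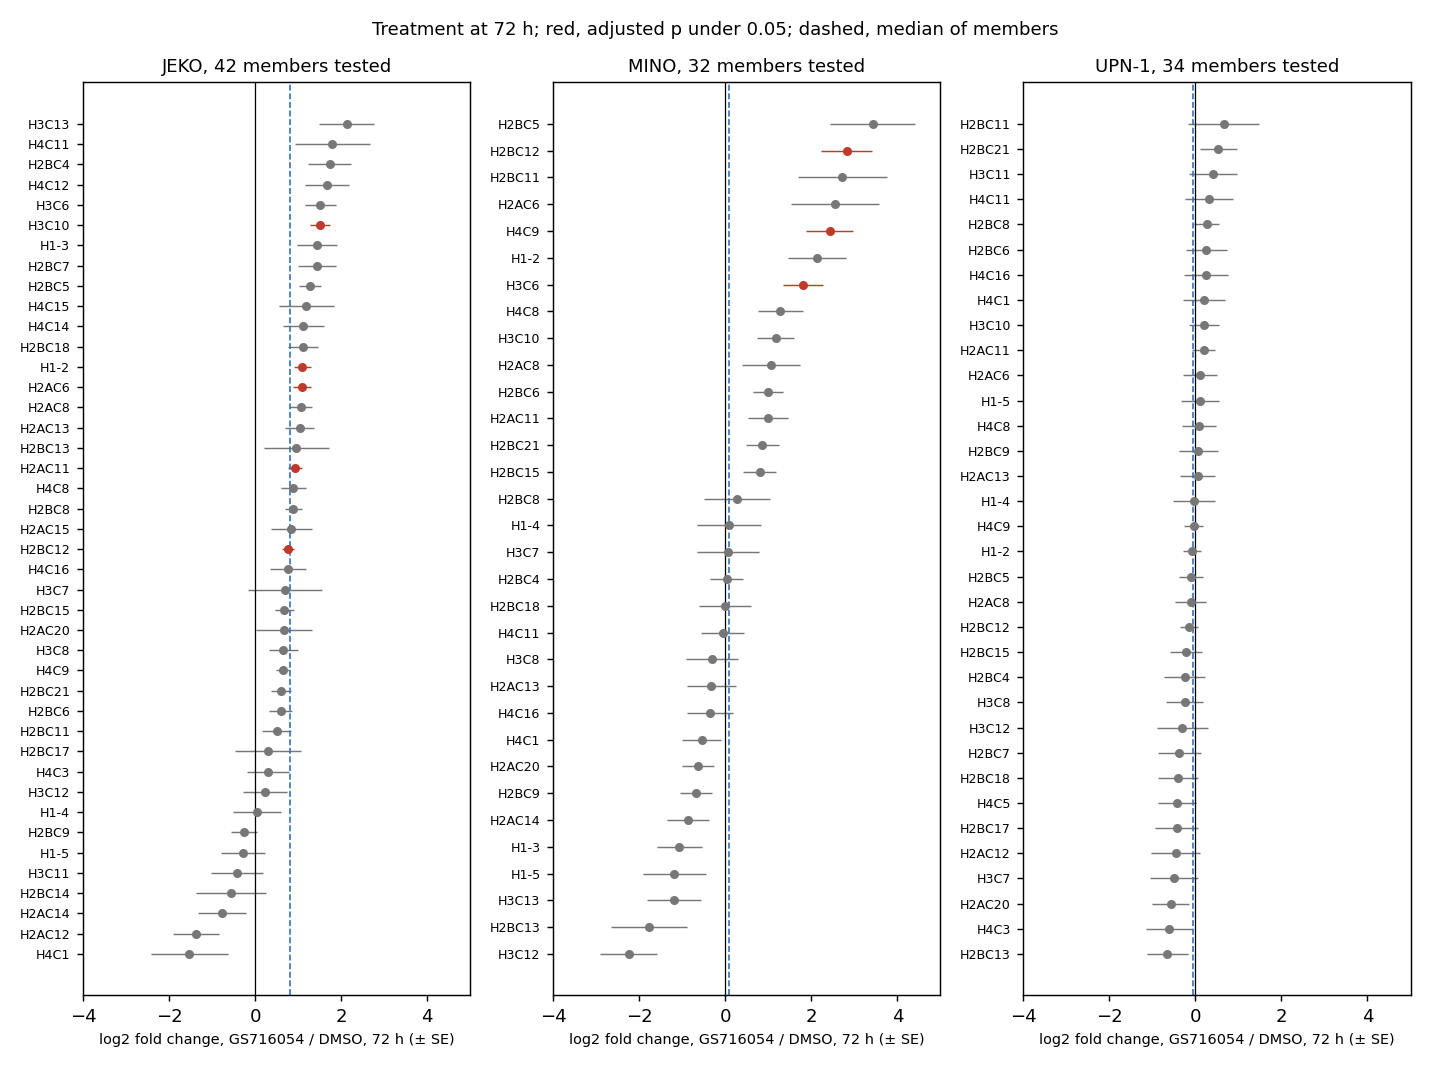
Log2 fold change of GS716054 over DMSO at 72 h (± SE, edgeR) for every member tested, 1 panel per line, sorted by value; red points have an adjusted p under 0.05 and dashed lines mark the median. In JEKO 35 of 42 members are above 0, in MINO 18 of 32 and in UPN-1 15 of 34.

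At 24 h in JEKO no member was called. Of all genes, 0.018% were called in this comparison, none of them higher. The summed member level was 251, 269.7 and 219.9 CPM in DMSO and 312, 271 and 245 CPM with GS716054, so the groups overlapped. The largest log2 fold change at 24 h among the 5 genes called at 72 h was that of H3C10, at 5.37, 7.25 and 6.81 CPM in DMSO and 10.4, 8.48 and 7.67 CPM with GS716054, 0.43 (SE 0.23, adjusted p = 1). H1-2 had -0.05 (SE 0.19, adjusted p = 1). At an unadjusted p under 0.05, 3 of the 42 members were higher and none lower, against 2.35% and 1.62% of all genes. The treatment effect at 72 h exceeded that at 24 h in value for 37 of 42 members, and 13 had an unadjusted p under 0.05, all with the larger effect at 72 h, against 1.1% of all genes in that direction and 0.695% in the other. None of these differences was called after adjustment, against 0% of all genes.

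In MINO at 72 h, GS716054 raised H2BC12, H4C9 and H3C6, and the libraries numbered 2 stood apart. The summed member level was 72.1, 120.2 and 68.9 CPM in DMSO and 98.9, 610.0 and 107 CPM with GS716054, with ratios of 1.37, 5.08 and 1.55 within the numbers. The DMSO library numbered 2 was above the treated libraries numbered 1 and 3, so the groups overlapped. In the libraries numbered 2, PCNA was lowest (459.9, 256 and 421 CPM in DMSO, 485, 162 and 499 CPM with GS716054) and SLBP too (133, 90.7 and 151 CPM and 150.3, 80.3 and 175 CPM). H1-10, a replication-independent linker histone gene, was highest in these libraries, at 94.8, 309.7 and 119 CPM and 156, 301 and 163 CPM. The part of these differences in the results was not tested. Values without both libraries are given beside the MINO calls at 72 h, the difference between the times and the change over time in DMSO. The difference among lines was refitted without them only without the block.

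A total of 3 of the 32 members tested in MINO at 72 h were called, all higher, against 3.51% of all genes called higher. At an unadjusted p under 0.05, 11 members were higher and 1 lower, against 11.7% and 10.5% of all genes. The median log2 fold change of the 32 was 0.08, against -0.03 for all genes, and 18 of the 32 were above 0. In every replicate number, 12 of the 32 were higher and 9 others lower. For 4 members every treated library was above every DMSO library, and for 3 the reverse was true. The shares of all genes for these counts are not given here. Without both libraries numbered 2 the members' median was 0.02. H2BC12 was at 2.77, 2.57 and 3.99 CPM in DMSO and 8.48, 49.6 and 9.48 CPM with GS716054, a log2 fold change of 2.82 (SE 0.59, adjusted p = 0.0157). H4C9 was at 2.61, 3.00 and 3.14 CPM and 5.89, 33.9 and 7.86 CPM, 2.43 (SE 0.54, adjusted p = 0.0223). In both genes the 3 treated libraries lay above the 3 DMSO libraries, with the treated library numbered 2 far above the other treated ones. H3C6, of lower level and named because it was the remaining call, was at 0.692, 0.857 and 0.915 CPM and 1.53, 4.63 and 2.56 CPM, 1.8 (SE 0.46, adjusted p = 0.0392).

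H2AC6, H2BC5 and H1-2 had higher values with GS716054 in every replicate number in MINO at 72 h but were not called without the block. H2AC6 was at 2.85, 33.7 and 2.22 CPM in DMSO and 14.5, 188 and 19.1 CPM with GS716054, 2.55 (SE 1.02, adjusted p = 0.162). Within the numbers its ratios were 5.09, 5.59 and 8.62. H2BC5 was at 1.85, 11.5 and 1.96 CPM and 6.01, 139 and 13.2 CPM, with ratios of 3.25, 12.1 and 6.72. H1-2 was at 7.46, 19.2 and 5.36 CPM and 15.9, 108 and 15.4 CPM, with ratios of 2.13, 5.65 and 2.88. In all 3 genes the DMSO library numbered 2 was also the highest of its group, by more than the other DMSO libraries differed from each other.

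The numbers were taken to pair the MINO libraries at 72 h (correlations of 0.47, 0.55 and 0.29). Libraries of different numbers reached 0.33 there, above the lowest same-number value, so this pairing is not clear-cut. With the block within each time, 8 members were called higher and 2 lower, against 10.4% and 9.8% of all genes. H2AC6 had 2.6 (SE 0.16, adjusted p = 8.94e-07), H2BC5 2.93 (SE 0.27, adjusted p = 1.11e-05) and H1-2 1.76 (SE 0.22, adjusted p = 0.000123). H2BC12 (0.0021), H4C9 (0.00239) and H3C6 (0.0137) stayed called at these adjusted p, and H2BC11 (0.00696) and H3C10 (0.0437) were added. The 2 called lower were H2BC9 and H3C12, at -0.67 and -2.2 on the log2 scale (adjusted p = 0.0343 and 0.0356). They and H2BC11 were chosen after their values were seen. H2BC9 was at 12, 5.25 and 12.4 CPM in DMSO and 9.78, 3.99 and 5.31 CPM with GS716054.

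Without both 72 h libraries numbered 2, the fit with the block called 5 members higher and 1 lower, H2BC9, against 11.8% and 11.3% of all genes. Without them and without the block, 5 of 35 members tested in MINO were called, all higher, against 7.79% of all genes called higher. They were H2AC6 at 2.70 (adjusted p = 0.000369), H2BC5 at 2.30, H2BC12 at 1.37, H1-2 at 1.26 and H4C9 at 1.22 on the log2 scale. The H2BC12 value moved from 2.82 to 1.37 and that of H4C9 from 2.43 to 1.22, while H3C6 lost its call (1.31, adjusted p = 0.12). With 1 library left out at a time, 0 to 5 members were called. H2BC12 lost its call without DMSO replicate 1 (0.065), and H4C9 without DMSO replicate 1 (0.0845) or DMSO replicate 3 (0.0754). H3C6 lost it in 5 of the 6 cases, all but the one without the GS716054 library numbered 1. Without the GS716054 library numbered 2 alone, the log2 fold changes were 1.5 for H2BC12, 1.22 for H4C9 and 0.43 for H2AC6. Without DMSO replicate 2 alone, H2AC6 (4.8), H2BC5 (4.71) and H1-2 (2.80) were called.

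**Figure D3:**
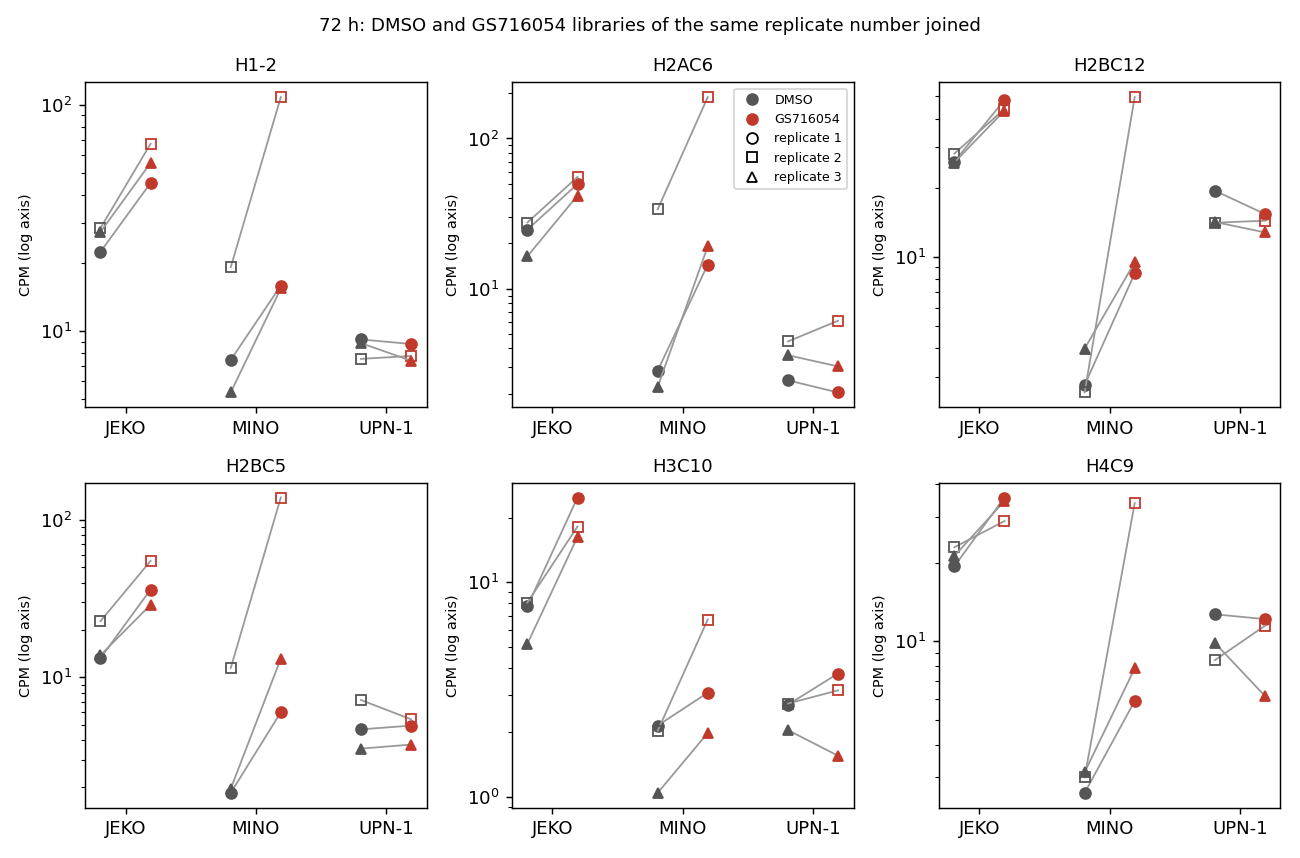
Level (CPM, log axis) of 6 members at 72 h in each line, with the DMSO (grey) and GS716054 (red) libraries of the same replicate number joined by a line. All lines rise in JEKO and MINO, the MINO libraries numbered 2 (open squares) lie highest for H1-2, H2AC6 and H2BC5, and the lines of UPN-1 go both ways or nearly level.

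At 24 h in MINO no member was called, against 2.39% of all genes. At an unadjusted p under 0.05, 1 member was higher and 2 lower, against 9.52% and 8.22% of all genes. H2AC6 was at 2.83, 4.96 and 3.61 CPM in DMSO and 6.31, 14.6 and 8.48 CPM with GS716054, without overlap of the groups, and had 1.32 (SE 1.11, adjusted p = 0.58). The numbers paired these libraries (correlations of 0.13, 0.27 and 0.18), and with the block within each time H2AC6 was called at 1.31 (SE 0.18, adjusted p = 0.000492). Its ratios within the numbers were 2.23, 2.93 and 2.35. H2BC11, chosen after its values were seen, was also called in that fit (0.0115), from 0, 0.257 and 0 CPM in DMSO to 0.326, 1.67 and 0.812 CPM. With 2 DMSO libraries at 0, its fold has no firm size. These calls were 6.25% of the 32 members, against 8.43% of all genes called higher in that fit. Of the genes called at 72 h, H2BC12 and H4C9 had 0.18 (SE 0.58, adjusted p = 0.907) and 0.19 (SE 0.56, adjusted p = 0.898) at 24 h. H3C6, also called at 72 h, had 5, 5 and 3 reads in DMSO and 13, 17 and 8 with GS716054 at 24 h. These groups did not overlap, and its log2 fold change of 1.51 was not called. The difference between the times was called for no member, against 0.0133% of all genes. With the block it was called, in the direction of a larger effect at 72 h, for H2AC6 (1.28 (SE 0.25, adjusted p = 0.0316)) and H2BC5 (2.25 (SE 0.41, adjusted p = 0.0241)), against 0.186% of all genes. Without both 72 h libraries numbered 2, no member was called without the block, against 0.335% of all genes. The members' median difference between the times went from 0.41 to -0.01. With the block and without these libraries, H2AC6 (1.40, adjusted p = 0.0204) and H2BC5 (1.59, adjusted p = 0.0372) were called, against 2.01% of all genes called higher.

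In UPN-1 no member was called at either time, with or without the block. Of all genes, 0.0262% were called at 24 h and 0.334% at 72 h, and 1.5% and 7.47% with the block. At 72 h the summed level was 102, 92.5 and 96.1 CPM in DMSO and 96, 106 and 73.2 CPM with GS716054, and no member had groups that did not overlap, against 5.15% of all genes higher and 3.79% lower. No member had an unadjusted p under 0.05 there, against 4.74% of all genes higher and 2.67% lower. The values ranged from -0.65 to 0.66 on the log2 scale, with a median of -0.06. H1-2 was at 9.19, 7.54 and 8.86 CPM in DMSO and 8.78, 7.77 and 7.4 CPM with GS716054, -0.08 (SE 0.21, adjusted p = 0.996). H2BC12, at 19.4, 14.1 and 14.2 CPM and 15.4, 14.4 and 12.8 CPM, had -0.15 (SE 0.20, adjusted p = 0.995). H3C10 had 0.20 (SE 0.35, adjusted p = 0.996). At 24 h the values of these genes were -0.34, 0.13 and -0.07.

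The treatment effect at 72 h differed among the lines for 2 of 47 members tested over the 36 libraries, against 1.01% of all genes. These were H2BC12 (adjusted p = 0.00869) and H4C9 (0.0261), with log2 fold changes of 0.77, 2.82 and -0.15 for H2BC12 in the order JEKO, MINO, UPN-1, and 0.64, 2.43 and -0.04 for H4C9. With the block within each time, 6 members differed, against 9.78% of all genes: H2BC12 and H4C9, and also H2AC6, H2BC5, H1-2 and H3C10. Without both MINO 72 h libraries numbered 2, H2BC12, H1-2, H2AC6 and H2BC5 differed, against 0.721% of all genes, and H4C9 was not called. At 24 h no member differed without the block, against 0.106% of all genes, and H2AC6 and H2BC11 did with it, against 5.74%.

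**Figure D4:**
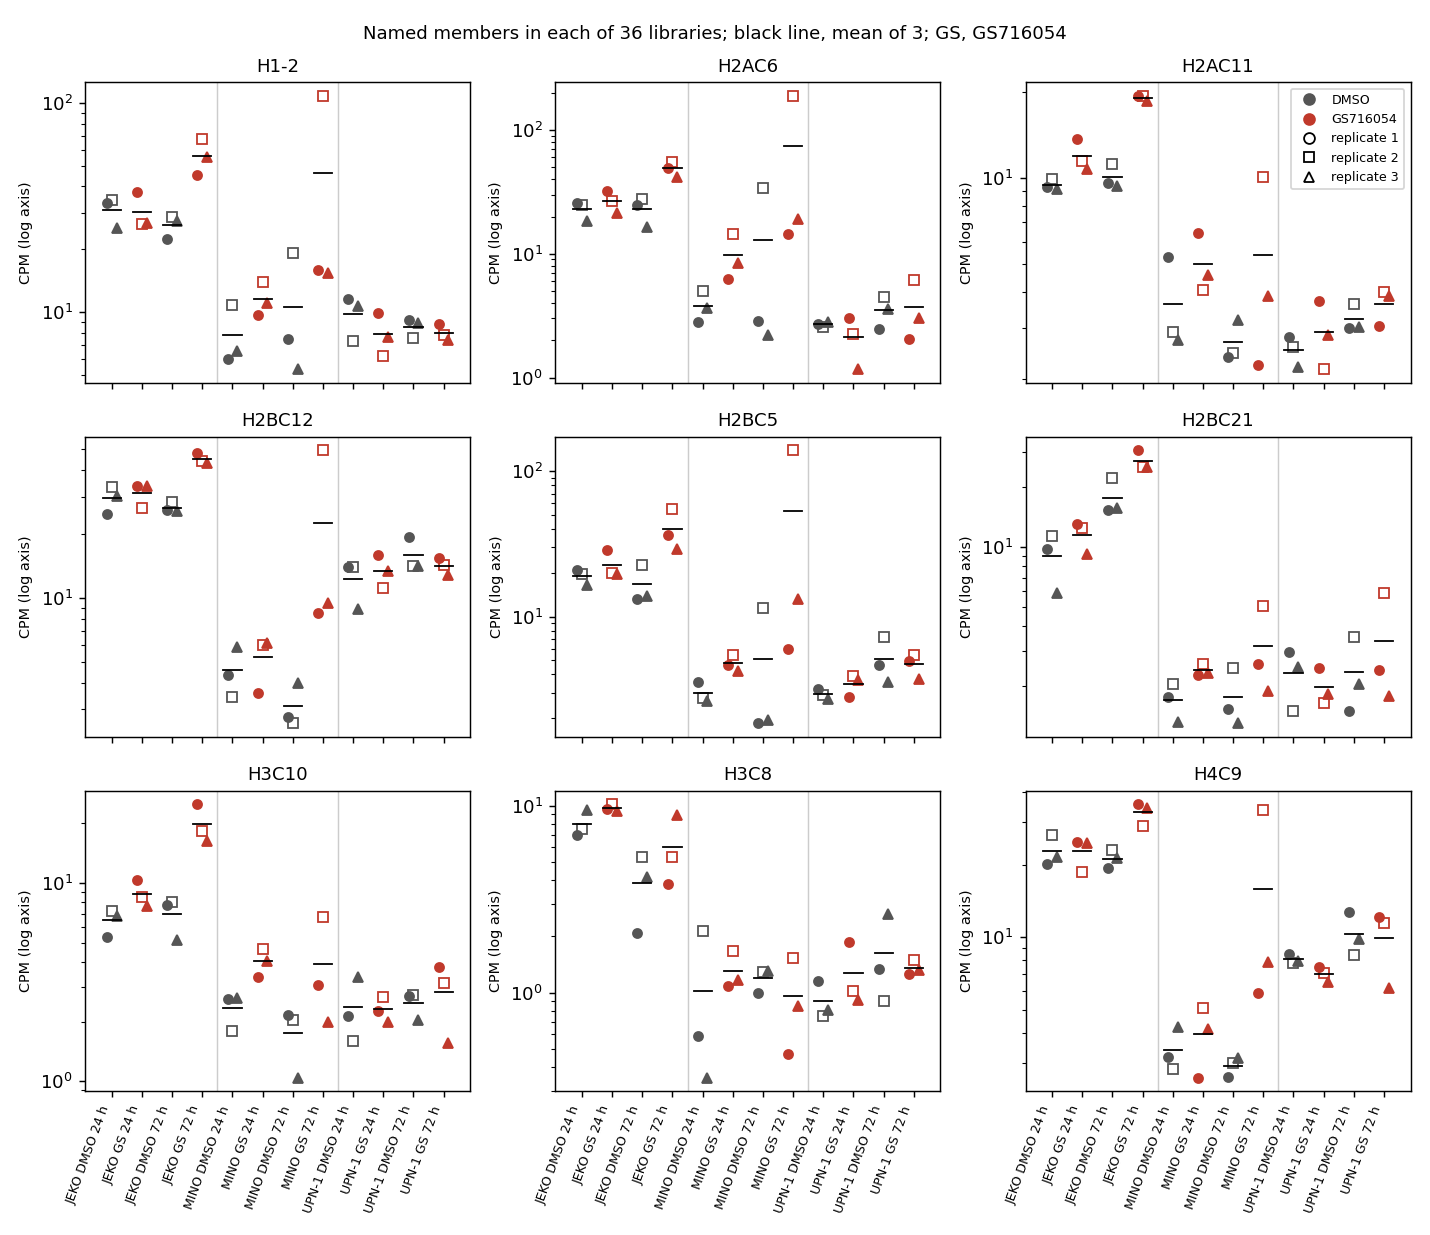
Level (CPM, log axis) of 9 members in each of the 36 libraries, by group; symbols give the replicate number and black lines the mean of 3 libraries. The JEKO libraries with GS716054 at 72 h lie above all other JEKO libraries for H1-2, H2AC6, H2AC11, H2BC12, H2BC5, H2BC21, H3C10 and H4C9. For H3C8 the JEKO group means are higher at 24 h, and single libraries overlap between the times.

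Over culture time in DMSO, few members were called in JEKO, while many listed genes of DNA replication were called lower. At 72 h against 24 h, 1 of 42 members was called higher and 1 lower, against 17.1% and 14.6% of all genes. H2BC21, a gene of the smaller cluster on chromosome 1, rose from 9.75, 11.4 and 5.9 to 15.3, 22.1 and 15.8 CPM, 0.97 (SE 0.24, adjusted p = 0.00883). H3C8 fell from 6.97, 7.48 and 9.47 to 2.1, 5.3 and 4.14 CPM, -1.05 (SE 0.34, adjusted p = 0.0286). The H3C8 call was lost when any of 4 of the 6 libraries was left out (adjusted p up to 0.112). The median of the 42 members was -0.16, against 0.05 for all genes, and 13 of the 42 were above 0. At an unadjusted p under 0.05, 4 members were lower and 1 higher. For 8 members every 72 h library was below every 24 h library, and for 1 the reverse was true. The shares of all genes for these counts are not given here. The median SE of the members was 0.48, so changes of single members could be missed. In MINO no member was called (0.0932% of all genes) and in UPN-1 none (1.47%). At an unadjusted p under 0.05, 2 members were lower and none higher in MINO, against 10.7% and 13.1% of all genes. Without both MINO 72 h libraries numbered 2 no MINO member was called either, against 13.3% of all genes, and the members' median went from -0.08 to -0.25. In UPN-1, 3 were higher and none lower, against 15.2% and 10.3%. The 72 h DMSO libraries are shared by this comparison and by the treatment comparison at 72 h.

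**Figure D5:**
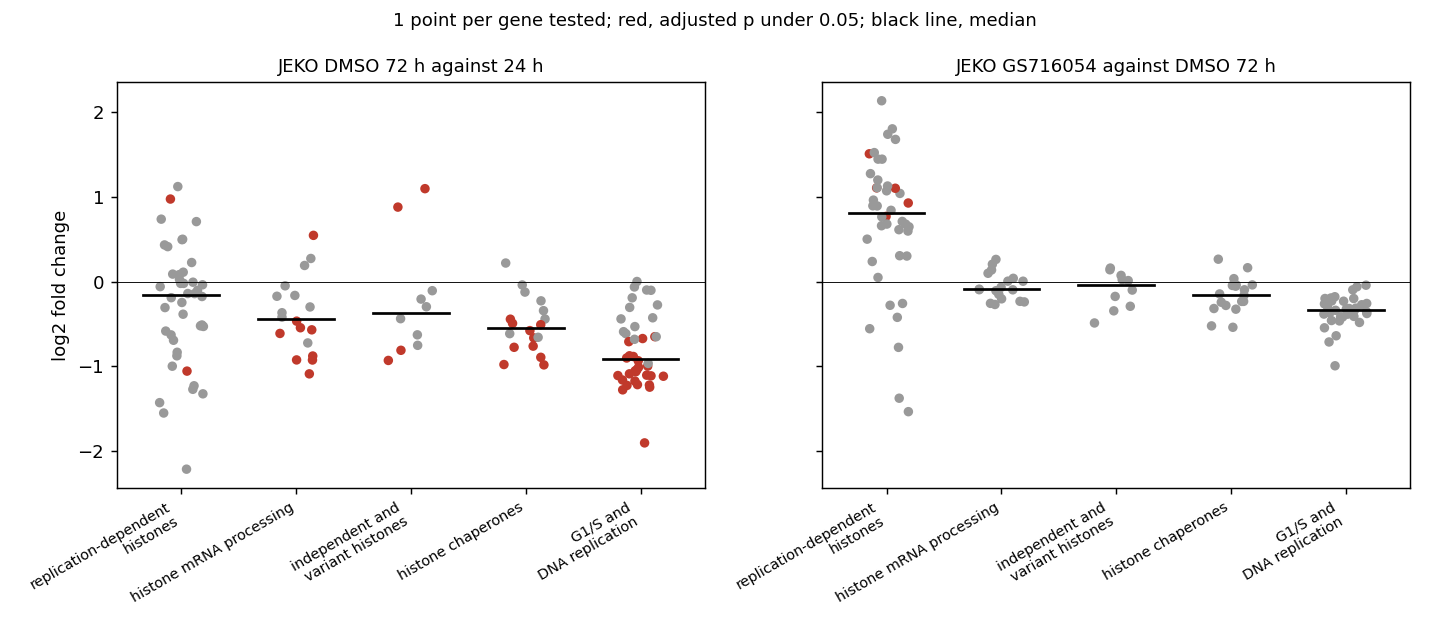
Log2 fold change of each tested gene in JEKO for the members and 4 lists of related genes, in DMSO at 72 h against 24 h (left) and with GS716054 against DMSO at 72 h (right); red points have an adjusted p under 0.05 and black lines are medians. On the left 25 of 40 replication genes are red and below 0, and on the right the 5 red points are all members.

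Of the 40 genes of G1/S and DNA replication listed, 25 fell in JEKO DMSO cells between 24 h and 72 h and none rose, with a median log2 fold change of -0.92. PCNA, the sliding clamp of the replication fork, went from 436, 485 and 486 to 152, 218 and 279 CPM, -1.11 (SE 0.31, adjusted p = 0.0151). Of the 18 genes of histone mRNA synthesis, processing and decay, 8 fell and 1 rose, and of 18 histone chaperones 10 fell. Genes that fell included RRM2, a gene of nucleotide synthesis, at -1.9 (SE 0.38, adjusted p = 0.00309), with further falls in the cap-binding gene NCBP1 at -1.09 (SE 0.16, adjusted p = 0.000936), and in the chaperone genes SUPT16H and ASF1B at -0.98 (SE 0.18, adjusted p = 0.00229) and -0.98 (SE 0.31, adjusted p = 0.0291). SLBP went from 162, 165 and 182 to 73.9, 89.7 and 105 CPM, -0.92 (SE 0.18, adjusted p = 0.00309). NPAT had -0.42 (SE 0.23, adjusted p = 0.165) and CCNE2, the cyclin E2 gene, -0.65 (SE 0.25, adjusted p = 0.0608). Among histone genes outside the S-phase group, H2AZ1 fell, with -0.81 (SE 0.22, adjusted p = 0.014), as did MACROH2A1, with -0.93 (SE 0.16, adjusted p = 0.00172). H1-10 rose by 0.88 on the log2 scale (adjusted p = 0.00822).

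None of the genes in these lists was called under GS716054 without the block, in any line at either time, with all libraries kept. In JEKO at 72 h, where the members' median was 0.80, the median of the replication list was -0.33, that of the processing list -0.09 and that of the chaperones -0.15. SLBP was at 73.9, 89.7 and 105 CPM in DMSO and 61.9, 88.5 and 99.8 CPM with GS716054, -0.10 (SE 0.18, adjusted p = 0.969). NPAT had 0.10 (SE 0.23, adjusted p = 0.969), PCNA -0.20 (SE 0.30, adjusted p = 0.952) and CCNE2 -0.10 (SE 0.25, adjusted p = 0.974). Of the replication-independent histone genes, H2AX had -0.35 (SE 0.27, adjusted p = 0.849), H2AZ1 0.01 (SE 0.22, adjusted p = 0.997) and H3-3B 0.02 (SE 0.16, adjusted p = 0.993). With the block, 6 of the 40 replication genes were called lower in JEKO at 72 h and none higher. For MINO the number lower was 27 at 24 h and 15 at 72 h, and for UPN-1 it was 0 and then 12, with none higher. In the same fits, 1.44% of all genes were called lower in JEKO at 72 h. That share was 7.36% for MINO at 24 h, 9.8% at 72 h, and 0.577% and 3.29% at these times for UPN-1. Without both MINO libraries numbered 2, the fit with the block called 8 replication genes lower and 2 higher in MINO at 72 h. Of all genes, 11.3% were called lower and 11.8% higher in that fit. The fit without the block called 4 lower and none higher there, against 6.6% of all genes called lower.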

How the data were processed

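Each library's file, as the authors deposited it, lists a whole-number read count for every one of 58302 Ensembl gene IDs and 5 summary lines. HISAT2 2.2.1, HTSeq 0.13.5 and the build GRCh38 are named in the submitters' processing notes. Which annotation release and strand setting were used for counting is not given in the sources used here. The summary lines (43.3% to 45.9% of reads in no feature) were left out. Symbols and exons came from GENCODE v44 by gene ID, which matched 57532 IDs. Genomic overlap with a gene on the opposite strand was found for H2AC21, H2BC4, H2BC6 and H2BC18.

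With edgeR 4.0.16 and limma 3.58.1 under R 4.3.3, counts were fitted by 1 quasi-likelihood model per line with 12 libraries, 4 groups and 8 residual degrees of freedom, TMM scaling and filterByExpr (minimum count 10, total 15), over 16690 (JEKO), 15028 (MINO) and 15248 (UPN-1) genes. Each fit per line with the block within each time had 4 residual degrees of freedom. The MINO fit with that block and without both 72 h libraries numbered 2 had 3. Line differences were tested over 36 libraries and 17980 genes. DESeq2 was version 1.42.0. The fit was tested on simulated data.

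Replicates are labelled biological replicates, with nothing more on their source. Numbers were taken to pair libraries where all 3 same-number correlations of deviations were above 0.1: this held in 5 of 6 treatment comparisons, not in JEKO at 24 h (0.0552 to 0.213) or between the times. The members and lists were chosen with earlier results of these data known. Members named are the 2 with the highest mean CPM in each family and up to 3 called members per comparison and direction with the largest log2 fold change and a mean log2 CPM of at least 1 in the line, 11 in all. Others named were chosen after their values were seen. Some genes of the lists are counted but not reported here by name. Alternatives were DESeq2, other filters, other sets of libraries, each library left out, and the replicate block.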

Additional observations from a re-analysis of the deposited data

Results flagged for a closer look

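The treatment effect at 72 h differed among the 3 lines for H2BC12 (adjusted p = 0.00869) and for H4C9 (adjusted p = 0.0261, edgeR F test over 36 libraries). H2BC12 was higher with GS716054 in all 3 replicate numbers in JEKO and MINO, and so was H4C9. Within the numbers, the MINO ratios were 3.06, 19.3 and 2.38 for H2BC12 and 2.25, 11.3 and 2.51 for H4C9, so the libraries numbered 2 gave the largest. In UPN-1 the ratios were 0.792, 1.02 and 0.901 and 0.959, 1.36 and 0.625.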

How the results depend on the processing

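No member was called in JEKO at 24 h, in UPN-1 at 24 h or 72 h, or in the UPN-1 difference between times under any alternative run. Elsewhere the count of called members moved. In JEKO at 72 h (5) it was 10 with DESeq2, 10 with the replicate block within each time, 9 with no low-count filter, 1 with all 36 libraries in 1 fit, 0 with only the 6 libraries compared, and 0 to 6 with 1 library left out. In MINO at 72 h (3) it was 10 with all 36 libraries, 10 with the block within each time, 7 with a replicate block over both times, 8 with no filter, 5 without both libraries numbered 2, 6 without them and with the block within each time, 0 with only 6 libraries, and 0 to 5 with 1 left out. In MINO at 24 h (0) it was 2 with no filter, 2 with the block within each time, 1 with the replicate block over both times and 1 with only 6 libraries. For DMSO over time it was 5 in JEKO (2) with all 36 libraries and 1 to 3 with 1 left out; in MINO (0) 2 with no filter and 1 with the replicate block; and in UPN-1 (0) 2 with no filter, 2 with the replicate block, 1 with DESeq2 and 0 to 2 with 1 left out. For the difference between times it was 1 in JEKO with no filter, and 4 with no filter and 2 with the block within each time, with or without both libraries numbered 2, in MINO. For the difference among lines at 24 h (0) it was 2 with no filter and 2 with the block within each time; at 72 h (2) it was 6 with no filter, 6 with the block within each time, 4 with the replicate block over both times and 4 without both MINO libraries numbered 2. The block over both times gave 7 in JEKO at 72 h. The cause was not tested, except that leaving out libraries or fitting 6 of them uses fewer samples. No log2 fold change of a gene followed across the alternatives changed sign. The MINO median at 72 h (0.08) was 0.86 with only 6 libraries and 2.29 at a minimum count of 50, where fewer members were tested, and the median of its difference between times (0.41) was 1.43 at that minimum, -0.01 without both MINO libraries numbered 2, -0.04 without them and with the block, and -0.12 to 0.56 with 1 library left out, the lowest without the GS716054 72 h library numbered 2. The block within each time and the removal of the MINO libraries numbered 2 were chosen after seeing the data. Numbers did not pair the libraries between times.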

Other observations

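H2A and H2B genes often lie head to head, with their starts a short distance apart. Among the members whose ID is in the count files, 12 of the 14 opposite-strand pairs with starts within 1000 bases joined 1 H2A and 1 H2B gene. Of the genes in these pairs, H2AC1, H2AC7, H2AC17, H2AC25 and H2BC26 had no read in any library. In 10 pairs both genes were tested in JEKO, and at 72 h both had a log2 fold change above 0 in 7 of these and values of opposite sign in 2. H2AC6 and H2BC4, with 218 bases between them, had 1.10 and 1.73 in JEKO and 2.55 and 0.04 in MINO, and 14.9% of the exon bases of H2BC4 overlap HFE on the other strand. H2AC11 and H2BC11, 247 bases apart, had 0.92 and 0.50 in JEKO and 0.99 and 2.72 in MINO. H2BC12 had 0.77 beside -1.37 for its neighbour H2AC12 in JEKO. Some of these values rest on few reads. In JEKO at 72 h, H2AC12 had 30, 34 and 8 reads in DMSO and 8, 8 and 13 with GS716054, with overlap of the groups. H2BC4 had 6, 9 and 5 reads in DMSO and 16, 19 and 36 with GS716054 there. In MINO at 72 h, H2BC11 had 1, 11 and 5 reads in DMSO and 4, 88 and 13 with GS716054. These pairs were chosen after their values were seen, and no test was run on them.

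GENCODE v44 gives a spliced transcript for 16 of the 65 members, among them H2AC6, H2BC5, H3C6 and H4C8. In JEKO at 72 h the 13 tested members with such a transcript had a median log2 fold change of 1.10, all above 0, and the 29 without had 0.71, with 22 above 0. In MINO at 72 h the medians were 1.00 over 11 members and -0.06 over 21, and without both libraries numbered 2 they were 0.14 over 11 and -0.22 over 24. In UPN-1 they were -0.01 over 10 and -0.06 over 24. No test was run on this split.

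H4C9 and H2BC12 kept a similar ratio of levels per kb while both varied. Over the 36 libraries, H4C9 over H2BC12 ranged from 0.591 to 1.45 with a median of 0.910. H2AC6 over H2BC12 ranged from 0.026 to 3.90 over the same libraries. The low share of unique windows in H2BC12 bears on both ratios.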
